A study of Mus musculus with 2 samples.

Results

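The 10 genes described here encode the parts of telomerase and of shelterin: Tert, Terc and Dkc1 for the enzyme, and Terf1, Terf2, Terf2ip, Pot1a, Pot1b, Tinf2 and Acd for the complex that covers chromosome ends. They were chosen by name, as 10 of the 43346 genes in the tables, with earlier results of these data known, so the order and spacing of their levels are given as a description with no p-value. The p-values below compare the 2 libraries only. Telomerase adds telomeric repeats to chromosome ends: TERT is the reverse transcriptase, the RNA encoded by Terc carries the template, and dyskerin (Dkc1) binds and stabilizes that RNA, as it does other box H/ACA RNAs. Shelterin coats the repeats, keeps the DNA damage response away from them and brings telomerase to the end. Blood stem and progenitor cells are among the tissues that suffer first when telomere upkeep fails in people, and dyskerin, TERT, TERC and TIN2 are all genes of the bone marrow failure disorder dyskeratosis congenita.

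Total RNA without ribosomal RNA was sequenced from G1E, an immortalized mouse line with a C57BL/6J background per the labels, which describe it as a Gata1- erythroid progenitor. There was 1 group of 2 biological replicates. Both libraries share the line and its Gata1- label, no treatment is named, and no sample with Gata1 was analysed here. As an immortalized line it is a model of such progenitors, not a sample of those in an animal. The libraries held 58094631 and 55274368 expected counts, which are estimated reads, on genes. Levels are in TPM, in which reads are divided by transcript length and scaled to the same total in each library. In both libraries all 10 listed erythroid progenitor markers reached 1 TPM, and their median was 24.9 TPM. They ran from Epor, at 2.24 and 3.24 TPM in replicates 1 and 2, to Tfrc, at 114.45 and 98.48. No markers of mast cells or megakaryocytes were listed. Of the 6 lymphoid markers 0 did so, with summed levels of 0.17 and 0.32 TPM in replicates 1 and 2. Of 7 macrophage and neutrophil markers, Lyz2 did, at 1.34 and 1.33 TPM of summed levels of 2.73 and 2.66. Of 6 fibroblast and embryonic stem cell markers 0 did, with sums of 0.54 and 0.07 TPM. Values of bulk RNA do not tell fewer expressing cells from less RNA per cell.

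By TPM the RNA of telomerase was abundant, while the RNA of its catalytic subunit was close to the limit of detection. Sequences of both genes are shown because they belong to 1 enzyme and lie far apart in level. The first 2 are the ends of Terc in mm10, read 5′ to 3′ and written as DNA. In the 5′ part (chr3:96414790-96414859, minus strand) capitals mark CTAACCC at bases 29 to 35, the letters from which telomeric repeats are copied. The annotated model opens upstream of them, and the mature mouse RNA is known to begin close to this template. In the 3′ part (chr3:96414437-96414506, minus strand) capitals mark the ACA at bases 418 to 420 of 423, the box that lies 3 bases before the 3′ end and gives H/ACA RNAs part of their name. The last is the RefSeq promoter of Tert, 300 bases that span the start of the gene (chr13:73626661-73626960, plus strand, GRCm38.p6), with capitals on 2 GC boxes.
Terc 5′ part: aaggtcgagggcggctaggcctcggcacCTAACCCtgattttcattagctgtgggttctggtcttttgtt
Terc 3′ part: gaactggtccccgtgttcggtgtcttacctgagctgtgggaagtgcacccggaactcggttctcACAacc
Tert promoter: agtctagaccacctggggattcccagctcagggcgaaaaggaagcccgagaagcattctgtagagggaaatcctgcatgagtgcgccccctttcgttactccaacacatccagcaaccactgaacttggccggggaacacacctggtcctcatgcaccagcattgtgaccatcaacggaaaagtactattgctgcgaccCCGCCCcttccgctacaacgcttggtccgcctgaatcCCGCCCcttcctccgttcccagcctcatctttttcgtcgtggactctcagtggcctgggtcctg

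Tert (ENSMUSG00000021611.8, chromosome 13, 73626911 to 73649843 on the plus strand, mm10) held 1 read in replicate 1 and 8 in replicate 2. Its TPM was listed as 0.00 and 0.01. The authors' interval for that TPM, of unstated level, was 5.9e-05 to 0.00877 in replicate 1 and 0.00648 to 0.0268 in replicate 2. The libraries' intervals overlap, and both lie far under 1 TPM. Exact Poisson 95% intervals, which like all such limits here cover counting error only, were 0.0253 to 5.57 reads in replicate 1 and 3.45 to 15.8 in replicate 2. Compared directly, scaled reads of Tert gave a log2 of 2.63 for replicate 2 over replicate 1. Its exact 95% counting interval of 0.22 to 8.60 lies above no difference, although the separate intervals overlap. That interval is not adjusted for the number of genes, and Tert had too few reads for the adjusted test below. With no filter on low counts, 0 genes of the set passed that test at 2-fold, so Tert did not pass it. A transcript of this length needs 3 reads for 0.00553 TPM in replicate 1 and 0.00545 in replicate 2, so the depth would have shown a level well under that of any other gene of the set. Tert stood above 14.2% of the 21461 nuclear protein-coding genes. Its transcript in the tables is 3426 nt long, against 4313 nt for the same transcript in GENCODE M21, a later annotation.

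The motifs of the Tert promoter were counted in all promoters of the same length. GC boxes (GGGCGG or CCGCCC, both strands, sites of Sp1-family factors) occurred in 35.7% of 32851 RefSeq promoters, and in 5 of the 8 genes of the set that have an entry. The first share is over promoters and the second over genes. Each GC box holds a CG pair, and CG pairs in the set's promoters ran from 7 in Acd to 24 in Tinf2. The median over all promoters was 7, so 5 of 8 is not set against promoters of like base composition. The E-box CACGTG, a palindrome bound by MYC with MAX, occurred in 7.15% of all promoters and in 0 of the 8. No gene of the set held both motifs, so no match overlaps another there, and a match is only a run of letters in this window.

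Terc (ENSMUSG00000064796.1, chromosome 3, 96414437 to 96414859 on the minus strand) held 1033 and 1568 reads in replicates 1 and 2. Its levels were 28.89 and 39.63 TPM, a mean of 34.3 ± 7.59 TPM (SD, n = 2). The authors' intervals were 26.9 to 30.4 TPM in replicate 1 and 37.3 to 41.2 in replicate 2, so they do not overlap. Its mean exceeded that of 96.1% of nuclear protein-coding genes. Terc is a short RNA of 423 nt, for which the authors' length correction used 212 nt in replicate 1 and 232 nt in replicate 2, and its TPM moves with that length. Per read of Tert, each divided by effective length, replicate 2 held 2728 times as much Terc, with an exact counting interval of 1385 to 6319. In replicate 1, where Tert has 1 read, the same ratio was 15669 with an interval of 2812 to 618881. The libraries thus give ratios that differ in size. Their counting intervals overlap, which does not show that the ratios agree.

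Dkc1 (ENSMUSG00000031403.10, chromosome X, 75095854 to 75109777 on the plus strand) had the highest level of the set. It held 9249 and 8239 reads, or 49.82 and 49.98 TPM, with a mean of 49.9 ± 0.113 (SD, n = 2), above 97.5% of nuclear protein-coding genes. The libraries were nearly equal in gene TPM. They were less so in what that TPM is made of. Of 12 annotated transcripts, the largest by TPM in both libraries was Dkc1-211, a processed transcript of 551 nt with no annotated reading frame, at 16.60 and 15.87 TPM. It took 33.3% and 31.7% of the gene's TPM but 10.3% and 11.8% of its reads.

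Dkc1-201, the 2804 nt transcript that encodes dyskerin, took 74.2% and 65.9% of the reads and 31.5% and 24.4% of the TPM in replicates 1 and 2, at 15.68 and 12.21 TPM. Dkc1-210, a transcript of 657 nt annotated for nonsense-mediated decay, had 15.1% of the TPM in replicate 1 and 24.1% in replicate 2. All coding transcripts of Dkc1 summed to 16.52 and 13.14 TPM, so most of the gene's TPM came from transcripts not annotated as coding, which carry fewer of its reads. With every read of the gene placed on Dkc1-201, the level would be 21.1 and 18.5 TPM. On this account the order of Dkc1 and Terc depends on which transcripts are summed: the TPM ratio of Dkc1 to Terc was 1.72 and 1.26 over all transcripts, and 0.572 and 0.332 over coding transcripts of Dkc1. In its exons Dkc1 shares 45 nt with Mpp1 on the opposite strand in GENCODE M21. No source used here says whether counting used the strand, so reads in such overlaps are uncertain.

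**Figure D1:**
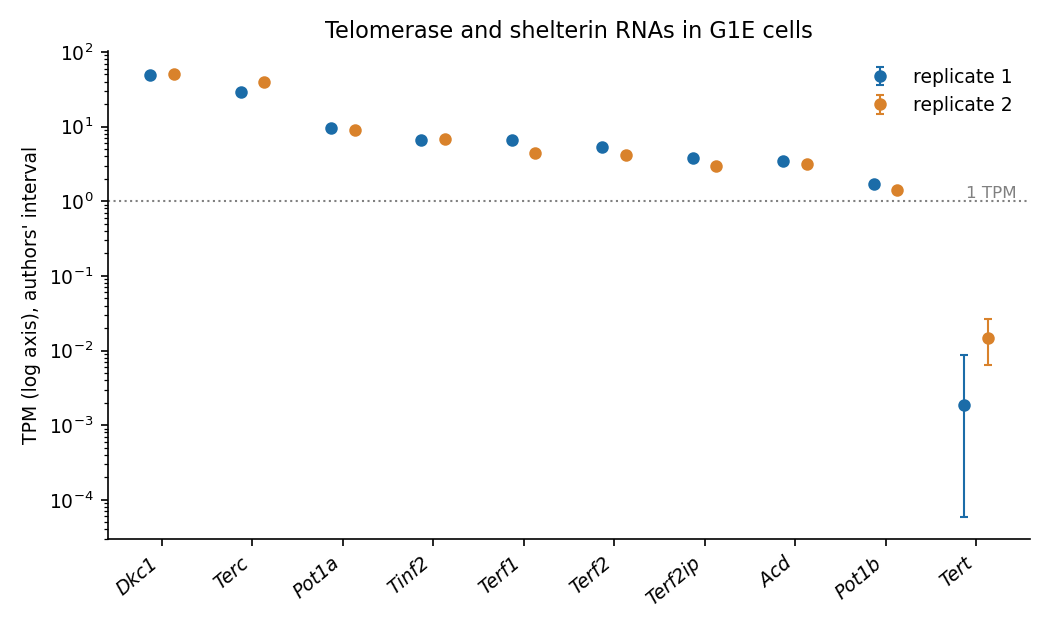
TPM of the 10 genes in replicates 1 and 2 on a log axis, ordered by mean, with the authors' interval as bars, most of which are shorter than the points. Tert is drawn at the TPM computed from its 1 and 8 reads; the other 9 genes stand above the dotted line at 1 TPM, between 1.43 for Pot1b in replicate 2 and 49.98 for Dkc1 in replicate 2.

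Of the 10 genes, 9 reached 1 TPM in both libraries and Tert did not. The same was true of 38.7% of nuclear protein-coding genes and 21% of all genes. The 7 shelterin genes were all among the 9 and spanned 1.71 to 9.59 TPM in replicate 1 and 1.43 to 9.05 in replicate 2, so that the highest stood 5.61 and 6.33 times above the lowest. Their median was 5.30 TPM in replicate 1 and 4.19 in replicate 2, against 7.34 and 6.60 over the 8303 nuclear protein-coding genes that reached 1 TPM.

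TRF1 and TRF2 bind the double-stranded repeats, TRF1 as a regulator of telomere length and TRF2 as the protein that keeps ends from being joined. Terf1 (ENSMUSG00000025925.10, chromosome 1, 15805646 to 15844052, plus strand) held 1944 and 1377 reads, or 6.60 and 4.44 TPM. Terf2 (ENSMUSG00000031921.13, chromosome 8, 107069400 to 107096547, minus strand) held 1720 and 1317 reads, or 5.30 and 4.19 TPM. Both were higher in replicate 1, with means of 5.52 ± 1.53 and 4.745 ± 0.785 TPM (SD, n = 2). Each mean lay within the other's SD, while Terf1 stood 1.25 and 1.06 times above Terf2 in replicates 1 and 2. The longest run of identical bases between their main transcripts is 17 nt, and the posterior SD of the read count, the authors' measure of how far reads could be reassigned, was 0 for all 10 genes in both libraries.

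Terf2ip encodes RAP1, which joins shelterin through TRF2. The gene (ENSMUSG00000033430.9, chromosome 8, 112011398 to 112020528, plus strand) held 2150 and 1743 reads, or 3.76 and 3.00 TPM, with a mean of 3.38 ± 0.537 (SD, n = 2). It had more reads than Terf2 in both libraries and a lower TPM over all transcripts. Its only listed transcript is 3599 nt long, and part of the TPM of Terf2 came from transcripts not annotated as coding. Reads and TPM over all transcripts thus put Terf2ip and Terf2 in opposite orders. Over coding transcripts Terf2ip, at 3.76 and 3.00 TPM, was slightly above Terf2, at 3.65 and 2.81.

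TIN2, from Tinf2, ties TRF1, TRF2 and TPP1 together. Tinf2 (ENSMUSG00000007589.8, chromosome 14, 55674689 to 55681820, minus strand) held 1717 and 1778 reads, or 6.68 and 6.76 TPM, a mean of 6.72 ± 0.0566 (SD, n = 2). TPP1, from Acd, links TIN2 to POT1 and recruits telomerase. Acd (ENSMUSG00000038000.9, chromosome 8, 105695860 to 105701102, minus strand) held 709 and 655 reads, or 3.46 and 3.12 TPM, a mean of 3.29 ± 0.240. Tinf2 stood 1.93 and 2.17 times above Acd in TPM in replicates 1 and 2.

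Both genes carry limits that come from the annotation. Each has 1 transcript in the tables, of 1736 nt for Tinf2 and 1425 nt for Acd, whereas the same transcripts measure 2956 and 3154 nt in GENCODE M21. In M21, Tinf2 shares 1137 nt of exon with Gmpr2 on the opposite strand, a gene with 1741 and 1951 reads. Acd shares 1089 nt with Carmil2 on the opposite strand, which held 7 and 13 reads. How far the shorter models used for counting overlap these neighbours was not tested. The posterior SD of the read count was 0 in both libraries for Gmpr2, Carmil2 and the Dkc1 neighbour Mpp1, as for the 10 genes. That value holds for the models used in counting and does not give the strand setting.

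Mice carry a pair of POT1 genes where people have a single one: POT1a represses the DNA damage response at telomeres and POT1b limits the trimming of the strand opposite the one telomerase extends. Pot1a (ENSMUSG00000029676.11, chromosome 6, 25743737 to 25809246, minus strand) held 3569 and 3248 reads, or 9.59 and 9.05 TPM, a mean of 9.32 ± 0.382 (SD, n = 2). Pot1b (ENSMUSG00000024174.8, chromosome 17, 55651951 to 55712628, minus strand) held 948 and 806 reads, or 1.71 and 1.43 TPM, a mean of 1.57 ± 0.198. In TPM over all transcripts Pot1a was the highest and Pot1b the lowest shelterin gene in both libraries. Over coding transcripts Tinf2, at 6.68 and 6.76 TPM, was above Pot1a, at 5.70 and 5.58, and in CPM, reads scaled to library depth, Acd at 12.2 and 11.9 was below Pot1b at 16.3 and 14.6. Their TPM ratio was 5.61 in replicate 1 and 6.33 in replicate 2. It was 3.33 and 3.90 over coding transcripts only, and 3.76 and 4.03 in CPM, so Pot1a was above Pot1b on each of these scales. Their longest run of identical bases, between Pot1a-203 and Pot1b-201, is 41 nt.

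The order by mean TPM was Dkc1, Terc, Pot1a, Tinf2, Terf1, Terf2, Terf2ip, Acd, Pot1b and Tert. Neighbours were set against a limit built from the spread between the libraries, pooled over all genes in the same range of TPM, on the scale of log2(TPM + 0.1), which understates ratios of genes near 0. For genes at 1 to 10 TPM that pooled SD was 0.66 and the limit for a pair 2.84. Of the 9 neighbour pairs, 1 passed: Pot1b above Tert, by 3.99 against a limit of 2.85. Tert lies under the lowest range, so its part of each limit is the SD of genes at 0.1 to 1 TPM, and no spread of genes at its own level enters. No shelterin gene was separated from another, with 0 of 21 pairs, and Pot1a over Pot1b missed the limit at 2.50. Of 7 pairs named for comparison, those that passed were Dkc1 over Tert at 8.90 and Terc over Tert at 8.34, both against 3.06.

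That spread is taken over genes of every type. At 1 to 10 TPM the 118 snoRNA, scaRNA and snRNA genes, of 6010 genes in all, gave 69.7% of the sum of squared differences behind it, and the 5374 nuclear protein-coding genes gave 8.75%. The limits of 2.84 thus mainly reflect small RNAs, and the 0 of 21 shelterin pairs is a count against them. With the spread taken over nuclear protein-coding genes only, an alternative listed with the main design, the pooled SD at 1 to 10 TPM was 0.21 and the limit 0.89. By that measure 11 of the 21 shelterin pairs, 5 of the 7 named pairs and 3 of the 9 neighbours were separated. The 3 neighbours were Terc over Pot1a at 1.85 against 0.86, Acd over Pot1b at 1.02 against 0.89, and Pot1b over Tert. Terc is not a protein-coding gene, so its part of that limit is the spread of genes of another class. At 10 to 100 TPM the pooled SD was 0.19 over nuclear protein-coding genes and 4.08 over 92 snoRNA, scaRNA and snRNA genes. With the spread over all genes, Terc over Pot1a stayed under its limit of 3.05. Pot1a over Pot1b at 2.50, Pot1a over Acd at 1.48 and Tinf2 over Acd at 1.01 passed as well. The neighbours within Pot1a, Tinf2, Terf1, Terf2, Terf2ip and Acd, and Dkc1 against Terc, did not pass the limit by either of these 2 measures. Both limits come from a spread pooled over many genes, not from the spread of the pair, so not passing does not make a pair equal. In replicates 1 and 2, Terf2 over Terf2ip was 0.48 and 0.47, and Pot1a over Tinf2 was 0.52 and 0.42, over all transcripts. Over coding transcripts both orders turned: Terf2ip over Terf2 was 0.04 and 0.09, and Tinf2 over Pot1a was 0.23 and 0.27. Terf2ip over Acd changed sign, at 0.12 and -0.05. When only coding transcripts are summed and the spread is taken over those sums, an alternative chosen after seeing the data, Dkc1 and Terc are separated with their order turned, Terc being above Dkc1 by 1.19 against a limit of 0.82. This limit too rests on the spread of coding genes, to which Terc does not belong. The difference was 0.80 in replicate 1 and 1.59 in replicate 2.

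**Figure D2:**
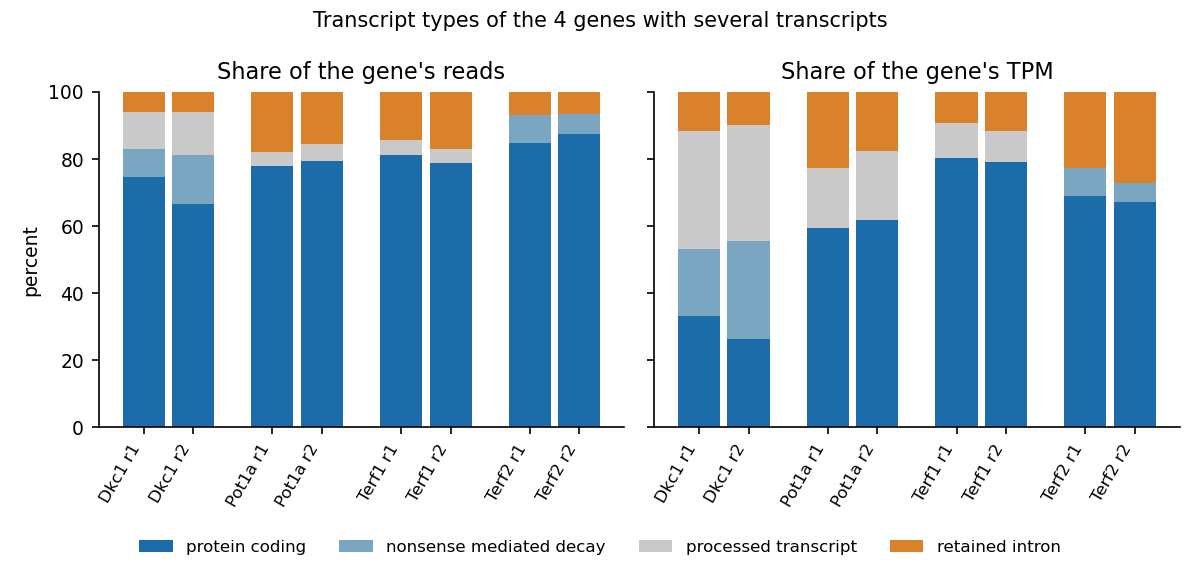
Share of reads and share of TPM by transcript type, in percent, for the 4 genes with several transcripts in replicates 1 (r1) and 2 (r2), as stacked bars. Coding transcripts of Dkc1 hold 74.6% and 66.5% of its reads and 33.1% and 26.3% of its TPM; in Terf1 the shares are close, at 81.3% and 78.9% of reads and 80.5% and 79.2% of TPM.

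Of the 10 genes, 6 have 1 transcript in the tables and 4 have several, 33 in all. Each of those 4 had the same leading transcript by TPM in both libraries. The share over all genes with several transcripts was not counted, so this is no contrast with other genes. For Terf1 it was Terf1-203 (coding, 2268 nt) at 46.1% and 49.0% of the gene's TPM, followed by the shorter coding Terf1-201 (1581 nt) at 34.3% and 30.2%. For Terf2 it was Terf2-202 (coding, 2667 nt) at 35.7% and 35.3%. These shares were close between the libraries, whose largest shift for any transcript was 4.17 percentage points in Terf1 and 5.68 in Terf2.

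Pot1a-203 (coding, 3151 nt) led Pot1a at 56.4% of its TPM in replicate 1 and 48.0% in replicate 2, and the processed transcript Pot1a-208 (720 nt) took 17.9% and 20.6%. The largest shift of a Pot1a transcript was 9.80 percentage points. Retained introns took 22.6% and 17.7% of the TPM of Pot1a and 17.9% and 15.4% of its reads, which are close. In Terf2 they took 22.7% and 27.2% of the TPM and 6.79% and 6.51% of the reads. Over coding transcripts alone, Pot1a had 5.70 and 5.58 TPM, Terf1 had 5.32 and 3.52, and Terf2 had 3.65 and 2.81.

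Between the libraries Terc differed most among the 9 genes that could be tested when scaled reads are compared. On the TPM scale Terf1 differed most, by -0.57 (log2, replicate 2 over replicate 1) against 0.46 for Terc. Reads were compared with a two-sided exact binomial test given scaled library sizes, adjusted by Benjamini-Hochberg over 18409 genes, which knows counting error only and compares 2 libraries, not conditions. Of the 9 genes tested, with Tert under the minimum of 10 reads, 0 passed an adjusted p of 0.05 at 2-fold, against 14.9% of all genes tested. That share includes small RNAs and genes with few reads: of 5564 protein-coding genes with a mean of 500 to 5000 reads, the range of 8 of the 9, 0.18% passed, so 0 is no contrast with genes of like depth. At any fold 5 passed, against 50.1% of all genes and 59.5% of those 5564, which is near both shares. At an unadjusted p under 0.05 there were 6, against 55% of all genes, and with DESeq2's size factors 0 passed at 2-fold.

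Terc was higher in replicate 2 by 0.73 on the log2 scale of reads, or 1.65-fold (exact binomial test, adjusted p = 1.7e-35), with a 95% interval of 0.61 to 0.84. Over 112 snoRNA genes the median difference was 1.97, with 86 passing at 2-fold as higher in replicate 2, and over 17 scaRNA genes it was 1.36, with 10 passing. Over 25 genes of the class misc_RNA that holds Terc the median was 0.46, with 6 passing, and over 14092 protein-coding genes it was -0.03, with 331 higher and 1215 lower. In the 5564 protein-coding genes with 500 to 5000 reads it was 0.04, with 8 higher and 2 lower. The part of this class difference in the value of Terc was not tested.

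Terf1, at -0.37, and Terf2, at -0.26, were lower in replicate 2 (exact binomial test, adjusted p = 1.5e-12 and 3.8e-06). Terf2ip was also lower, at -0.18 (adjusted p = 0.000443 by the same exact test), and Tinf2 was higher at 0.17 (adjusted p = 0.00125). Dkc1 at -0.04, Pot1a at -0.01, Pot1b at -0.11 and Acd at 0.01 did not pass. Of the 7 shelterin genes 5 had fewer scaled reads in replicate 2 and 2 had more, with a median of -0.11.

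**Figure D3:**
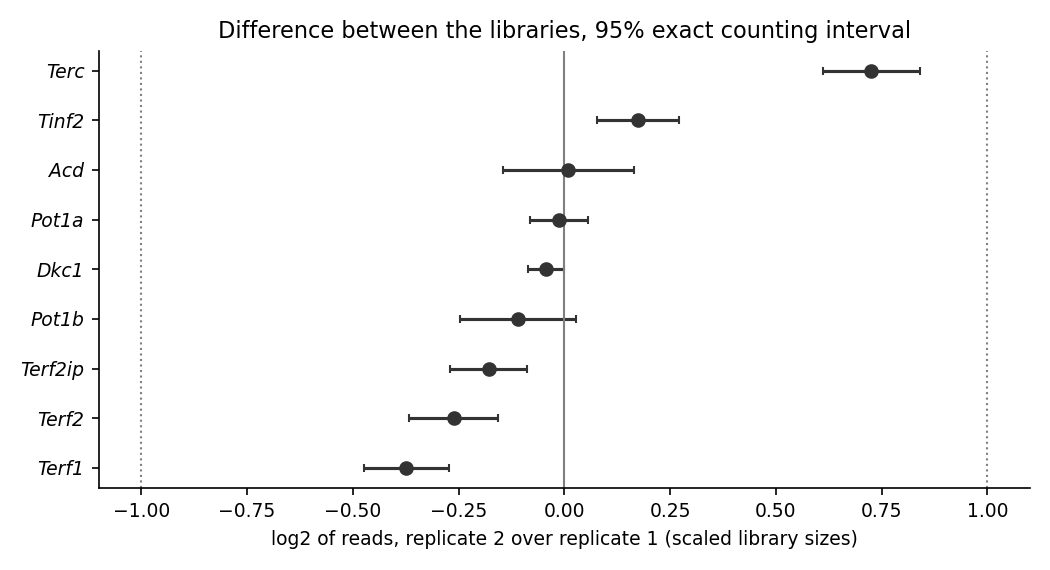
Log2 of scaled reads in replicate 2 over replicate 1 for the 9 genes tested, with 95% exact counting intervals; the solid line marks no difference and the dotted lines 2-fold. Terc stands apart at 0.73, and the other 8 lie between -0.37 for Terf1 and 0.17 for Tinf2.

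Genes that work with telomerase and shelterin were given as 7 lists of 73 genes, all present in the tables. Of these 67 reached 1 TPM in both libraries, against the 38.7% of nuclear protein-coding genes given above, with a median mean level of 10 TPM. By the exact binomial test 0 of the 68 tested differed between the libraries at 2-fold, against 14.9% of all genes and 0.18% of protein-coding genes at 500 to 5000 reads. All 5 H/ACA partners that bind or help assemble dyskerin RNAs were present, with Nop10, a core protein of these particles, highest at 50.8 ± 8.92 TPM (SD, n = 2) and Naf1, an assembly factor, lowest at 2.595 ± 0.163. Nop10 and Dkc1 thus had like levels over all transcripts. All 10 genes of telomerase assembly and trafficking were present. Among these the chaperone Hsp90aa1 was highest at 400.0 ± 69.2 TPM and Wrap53, whose product TCAB1 takes the enzyme to Cajal bodies, lowest at 1.74 ± 0.0424.

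All 10 genes of Terc processing were present, led by Rbm7 at 25.1 ± 1.01 TPM, with Zcchc8 lowest at 3.825 ± 0.205; both act in the complex that hands nuclear RNA to the exosome. All 7 genes of CST and primase, which fill in the strand opposite the one telomerase extends, were present, with the primase subunit Prim2 highest at 28.3 ± 0.926 TPM and Ctc1 lowest at 3.165 ± 0.742. Of 21 shelterin partners 20 were present, led by the flap endonuclease Fen1 at 31.2 ± 0.332 TPM. The exception was Tnks1bp1, which encodes a tankyrase-binding protein, at 0.31 and 0.50 TPM.

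All 14 genes of telomere chromatin were present, from Hmbox1, whose product binds telomeric repeats, at 2.29 ± 0.354 TPM to the histone H3.3 gene H3f3a at 508.6 ± 102 TPM. The complex that ties telomeres to the nuclear envelope in meiosis was the list with the lowest levels. Of its 6 genes, Sun1, which also serves the envelope of other cells, stood at 8.205 ± 0.361 TPM. Terb1, Terb2 and Ccdc155 held 0 reads in both libraries, Majin held 4 and 1, and Spdya held 1 and 5. Tert thus shared its range of few or no reads with genes of this list, while its partners in the enzyme did not.

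**Figure D4:**
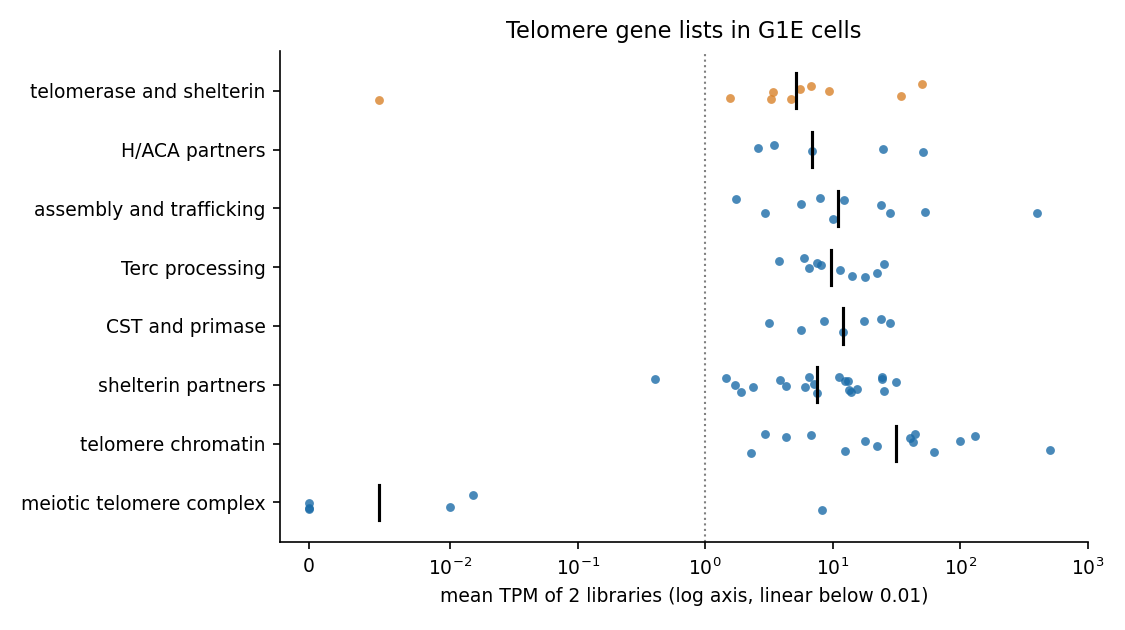
Mean TPM of the 2 libraries for each gene (points) and list median (black bars), on a log axis that is linear below 0.01, with telomerase and shelterin at the top and the 7 telomere lists under it; the dotted line marks 1 TPM. Medians of the 7 lists run from 0.005 for the meiotic complex to 31.3 for telomere chromatin, and Tert lies among the meiotic genes.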

How the data were processed

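RNA-seq of total RNA, with ribosomal RNA removed, came from 2 biological replicates of G1E. For both libraries an input of 100 ng of RNA and a size range of 200 to 1000 nt are recorded. The part of that range in the levels of short RNAs such as Terc was not tested. The members and the gene lists were chosen with earlier results of these data known. The authors deposited 1 gene and 1 transcript table per library, built on mm10 with GENCODE release M4 per the deposited read-me texts; which aligner and quantifier ran is not given in the sources used. Per the file headers, the tables hold an expected count (estimated reads), a TPM with an interval, and a percent, the share of a gene's TPM in each transcript. In the deposited TPM, reads are divided by effective length and scaled to a fixed total per library. Names, types and coordinates came from GENCODE M21, which matched 42462 of 43346 genes. Rows with numeric names, with 20 and 37.61 counts, were left out.

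A gene counted as present at 1 TPM in both libraries. Limits for separation were the t quantile (0.975, 2 degrees of freedom) times the root mean square of the genes' pooled SDs. The quantile kept 2 degrees of freedom although each SD is pooled over many genes, which makes the limits wide. A separated pair also needed the same sign in both libraries. For the test between libraries, expected counts were rounded to whole numbers and scaled by TMM (edgeR 4.0.16, R 4.3.3), genes needed 10 counts over both libraries, 0.5 was added to counts before log2, and p-values were adjusted over all of them; DESeq2 1.42.0 gave other size factors. The rest ran in Python 3.11.15 (pandas 2.3.3, scipy 1.17.1, matplotlib 3.10.9). The test was checked on simulated libraries with planted changes and counting error only, so that check does not cover variation beyond counting. Named are all 10 genes, the highest and lowest gene of each telomere list with the undetected ones, and leading transcripts or those with at least 20% of a gene; Pot1a-208 and Dkc1-210 enter by that share. The markers Lyz2, Epor and Tfrc and the neighbours in the annotation were named after their values were seen. Promoters are from RefSeq (GRCm38.p6) and Terc from the mm10 annotation; 8 of the 10 genes have a promoter entry.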

Additional observations from a re-analysis of the deposited data

How the results depend on the processing

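Of the 10 genes, 9 reached the threshold at 0.5 TPM, with posterior mean TPM, with TPM rescaled to nuclear protein-coding genes and in each library alone, and 4 did at 5 TPM. The number of separated neighbours, 1 of 9, was 3 in CPM, 3 with the spread of nuclear protein-coding genes, 0 with posterior mean TPM and 4 with coding transcripts only, an alternative chosen after seeing the data that changes the levels, the order and so the pairs, and the pooled spread together; with 1 library left out it ranged from 0 to 1, and it was 0 without replicate 1. The named pairs separated, 2 of 7, were 5 in CPM, 5 with the spread of nuclear protein-coding genes and 4 with coding transcripts only. With a pseudocount of 1 Pot1a over Pot1b passed too, making 3. Genes differing between the libraries, 0 at 2-fold, were 1 at 1.5-fold (Terc) and 5 with no minimum fold. Of the 73 list genes, 51 reached 5 TPM. Shares over all genes at 0.5 TPM, 5 TPM and 1.5-fold were not counted, so the counts at these settings are no contrast with other genes. No paired analysis was possible because there is 1 group. With 2 libraries the spread of a single gene is poorly known, and the value of Tert rests on 1 and 8 reads.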
